A study of Homo sapiens with 2 samples.

Results

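The genes described here are 3 small families of immediate early genes and the factor that drives many of them: EGR1, EGR2 and EGR3, IER2, IER3 and IER5, ZFP36, ZFP36L1 and ZFP36L2, and SRF. They were chosen by name, and every probe set annotated to 1 of these 10 genes alone was used. Probe sets were found for 9 of the 10, among 19775 genes with a probe set of their own, and EGR2 was not analysed here. The 9 genes had 18 probe sets.

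Signals came from DLD-1, a human colorectal carcinoma cell line, that had been stably transfected with wild-type p53 under a tet-off system, in which tetracycline keeps the transgene silent. In the p53 off condition the cells were grown with tetracycline, and in the p53 on condition they had been without it for 9 h. Both conditions share the same transfected line, and neither is the parental line. Each was measured on 1 array, so every ratio describes this pair of arrays and no test between the conditions was possible.

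Immediate early genes are switched on within minutes of a growth factor, stress or DNA damage signal, from factors already present in the cell. SRF sits on their promoters at CArG boxes together with ternary complex factors, which the ERK kinase cascade phosphorylates, or with actin-regulated MRTF cofactors. EGR proteins are zinc finger transcription factors that bind GC-rich sites and are held in check by NAB corepressors. ZFP36 proteins bind AU-rich elements in messenger RNA and bring in the CCR4-NOT deadenylase, which starts decay. IER2 and IER5 are related nuclear proteins and IER3 is not related to them; the 3 share a name for their fast induction.

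Promoter sequences were analysed for only 6 of the measured genes, with 8 start sites. They came from RefSeq annotation of GRCh38.p14, each running from 250 bases before to 50 bases after a start site. Shown here are the stretches just upstream of EGR1 and SRF, which both carry CArG boxes but had very different signal ratios, and of ZFP36 and IER5, which carry none and were both brighter with p53 on. All lie on the plus strand and end 1 base before the start site. The EGR1 stretch is chr5:138465279-138465478, that of SRF chr6:43171169-43171268, that of ZFP36 chr19:39406747-39406846 and that of IER5 chr1:181088600-181088699. Capitals mark CArG boxes, read as 6 A or T bases between CC and GG.
EGR1: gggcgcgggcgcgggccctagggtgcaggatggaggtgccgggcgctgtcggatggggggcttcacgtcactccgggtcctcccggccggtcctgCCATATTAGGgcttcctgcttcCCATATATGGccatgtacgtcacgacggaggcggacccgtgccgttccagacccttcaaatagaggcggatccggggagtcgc
SRF: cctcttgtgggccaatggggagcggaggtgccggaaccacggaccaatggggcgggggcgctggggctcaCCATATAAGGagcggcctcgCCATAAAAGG
ZFP36: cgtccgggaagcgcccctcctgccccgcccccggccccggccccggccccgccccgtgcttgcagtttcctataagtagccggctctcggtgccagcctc
IER5: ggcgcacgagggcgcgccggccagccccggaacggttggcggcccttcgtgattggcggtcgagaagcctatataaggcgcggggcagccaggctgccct

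The EGR1 promoter held 2 CArG boxes, at positions -105 to -96 and -83 to -74 from the start site. The SRF promoter also held 2, at -30 to -21 and -10 to -1, at the first of its 2 listed start sites. Such boxes were rare, with at least 1 in 1.29% and 2 or more in 0.031% of 35116 promoter windows of the same length, searched on both strands. No CArG box was found in the windows of IER2, IER5, ZFP36 or ZFP36L1. That says only that these letters are not within the window. The promoters of EGR3, IER3 and ZFP36L2 were not analysed here, so whether they hold CArG boxes was not tested.

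Other motifs were searched as fixed letters on both strands. The EGR site GCGNGGGCG, found in 9.43% of windows, matched at -198 to -190 in EGR1, at -49 to -41 in SRF and at 7 to 15 downstream of the second start site of ZFP36L1. The ETS core was read as CCGGAA, a narrow form of the sites that ternary complex factors and other ETS proteins bind. It was present in 17.2% of windows and matched in SRF at -70 to -65, IER5 at -74 to -69 and IER2 at -26 to -21. ETS sites in other letters were not searched, so the lack of a match in EGR1 does not mean that it has none. The CRE core TGACG, present in 24.6%, matched in EGR1 (2 places), SRF, IER2 and both windows of ZFP36L1, where the 2 in the second window overlap. ZFP36 had no match to any of these motifs. No match overlapped a CArG box.

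**Figure D1:**
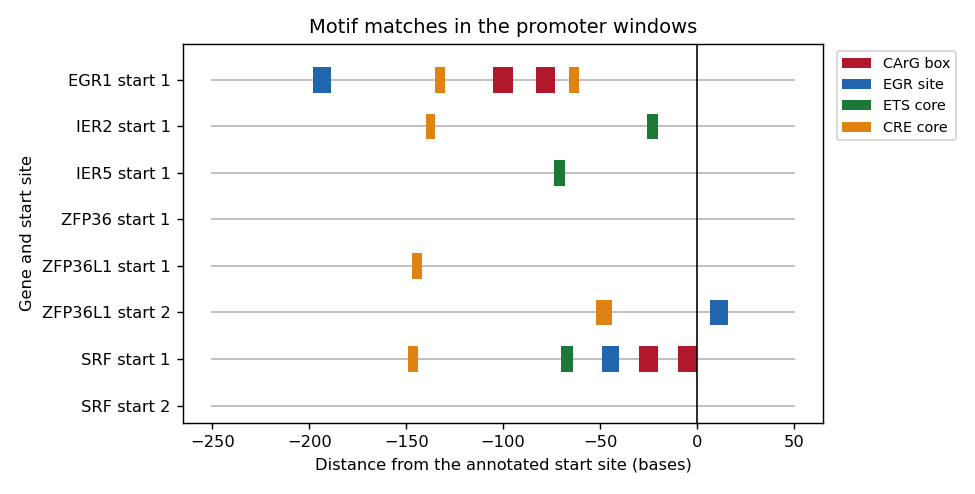
Motif matches along the 8 promoter windows, with distance from the annotated start site in bases on the horizontal axis and 1 row per gene and start site. Each coloured block is a match to the named motif on either strand. EGR1 and SRF are the only rows with CArG boxes, 2 each.

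Of the 9 genes, 5 were at least 2-fold brighter with p53 on and none was at least 2-fold dimmer, each read on its brightest probe set. Below, genes past this size are said to be called higher or called lower. Of all 13915 measured genes, 15.3% were called higher and 13.5% called lower. The 5 were ZFP36L2, EGR1, IER5, ZFP36 and EGR3. Of the other 4, IER2 and ZFP36L1 were at least 1.5-fold dimmer, a size that 25.9% of all genes reached downward and 25.9% upward, and IER3 and SRF lay within 1.5-fold. The median log2 ratio of the 9 genes was 1.35, against 0.0035 for all measured genes, with a range from -0.81 to 2.84. That median is the value of EGR3, which depends on the floor described below and could only read higher.

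A signal under 112.4, the median of all signals on both arrays, was set to that floor, and a ratio with 1 signal under it is a lower bound, written "at least". Of the 18 probe sets, 15 had at least 1 signal above the floor and 5 of these gave bounds. By probe set, 9 of the 15 were called higher and 1 lower, where 14.0% and 13.0% of all measured probe sets were. For the 5 bounds, the array above the floor fixed the direction in advance. They include 201693_s_at of EGR1, 206115_at of EGR3 and 201367_s_at of ZFP36L2 among those called higher. The 1 called lower, 211965_at of ZFP36L1, is a bound too. Probe sets of 1 gene read the same RNA on the same 2 arrays and are not replicates.

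**Figure D2:**
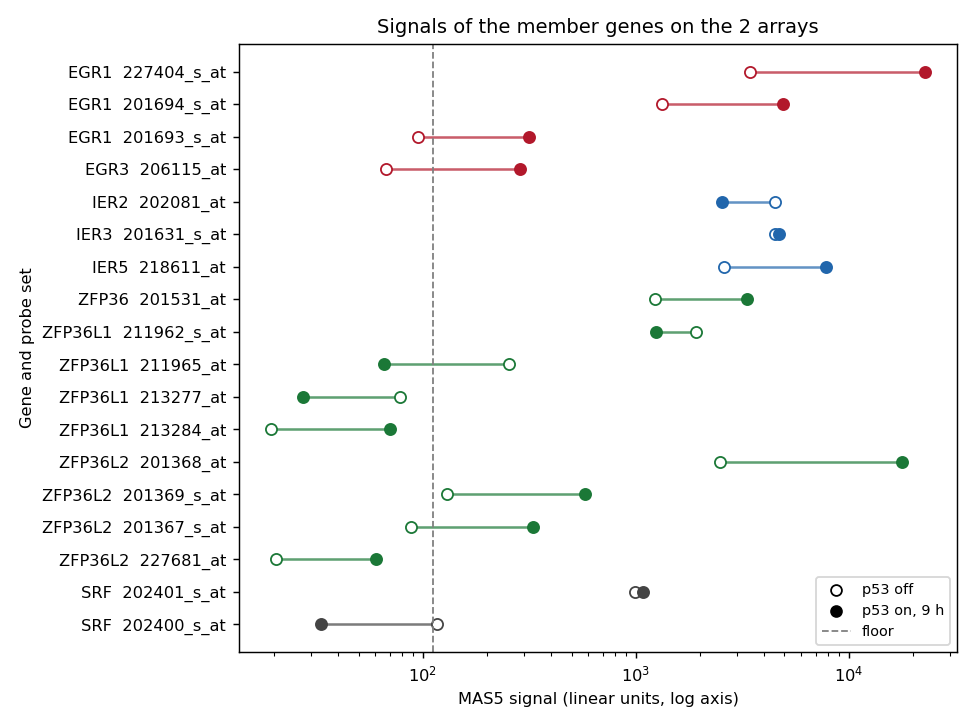
MAS5 signal of every member probe set, on a log axis, with p53 off as open and p53 on as filled circles joined by a line, and the floor of 112.4 as a dashed line. The filled circles lie to the right for all probe sets of EGR1, EGR3, IER5, ZFP36 and ZFP36L2, and to the left for IER2 and for 3 of the 4 probe sets of ZFP36L1.

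EGR1, the best known factor of its family and a regulator of growth and stress genes, was higher with p53 on in all of its 3 probe sets. The brightest probe set, 227404_s_at, gave 3444 in the p53 off array and 22793 in the p53 on array, a 6.62-fold difference. The next, 201694_s_at, read 1329 and 4928, or 3.71-fold. The third, 201693_s_at, was dim at 95.48 and 316.8, and was at least 2.82-fold higher. Only 1.95% of measured genes had a ratio as high as that of EGR1 or higher.

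EGR3, a relative that binds the same GC-rich sites, had a single probe set, at 66.95 with p53 off and 285.6 with p53 on. It was at least 2.54-fold higher. It was measured only through the p53 on array, so with the floor its ratio could only lie above 1. With the floor at the 60th percentile its log2 ratio was 0.76, under 2-fold.

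Relatives and corepressors were read from a single list of 6 genes, which covers the EGR, IER and ZFP36 families together. Of these, 5 were measured, 3 called higher and none lower. IER5L, a relative of IER5 described below, is among the 3. EGR4 was at least 2.43-fold higher, at 67.69 and 273, and its other measured probe set had a log2 ratio of 0.35. NAB2, a corepressor that EGR factors induce, was at least 2.83-fold higher at 104.3 and 318. NAB1, the other corepressor, read 1053 and 850.9, a log2 ratio of -0.31, with 3 probe sets between -0.31 and -0.08. EGR4 and NAB2 had p53 off signals under the floor, like EGR3.

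Genes reported to carry EGR sites did not lean to either side. Of 16 listed, 13 were measured, with 3 called higher, 3 called lower and a median log2 ratio of -0.04. PDGFA, a growth factor chain, was 6.29-fold higher at 233.3 and 1467, and its other probe set had a log2 ratio of 2.82. PDGFB, the other chain, was 2.13-fold higher, with probe sets from -0.07 to 1.5, and NAB2 is the third. GDF15, a stress cytokine, was 5.79-fold lower at 13288 and 2295, although another of its probe sets reached 1.22. ICAM1, an adhesion molecule, was at least 4.37-fold lower, and TGFB1 at least 2.05-fold lower.

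The IER genes split. IER5, a nuclear protein that p53 is known to induce and that activates heat shock factor 1 through protein phosphatase 2A, gave 2598 in p53 off cells and 7851 after induction, 3.02-fold higher. IER3, a stress-induced membrane protein that modulates apoptosis, read 4498 and 4720, a log2 ratio of 0.07. IER2, a nuclear protein of the early growth response, read 4493 and 2556, 1.76-fold lower. Each has only 1 probe set. The log2 ratio of IER5 exceeded that of IER3 by 1.53 and that of IER2 by 2.41, differences that no single scaling factor per array would move.

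The paralog IER5L, from the list of relatives, went the same way as IER5. It gave 227.3 in p53 off cells and 1105 after induction, 4.86-fold higher, and both of its probe sets were higher, with log2 ratios of 2.28 and 1.85. Genes that work with IER5 mostly had lower signals. Of 11 listed, 9 were measured, with 1 called higher, 5 called lower and a median of -1.11. With the mean of all probe sets of a gene, 3 were called lower and the median was -0.79. HSF1, the heat shock factor itself, read 763.8 and 492.7, a log2 ratio of -0.63. PPP2CA, the catalytic subunit of the phosphatase, was 3.12-fold lower at 8388 and 2686, but its other probe set had a log2 ratio of -0.10.

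Among the outputs of that axis, DNAJB1, a cochaperone induced by heat shock, was 3.22-fold lower at 5667 and 1760, with both probe sets lower. HSPB1, a small heat shock protein gene, was 2.03-fold higher at 11178 and 22655, and it was under 2-fold after quantile normalization and after loess, where no gene of this list was called higher. CDC25B, a phosphatase that promotes mitotic entry and that IER5 has been reported to regulate, was 6.74-fold lower, at 2966 and 440.4.

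The ZFP36 family also split, between ZFP36 and ZFP36L2 on one side and ZFP36L1 on the other. ZFP36L2, which restrains proliferation in several lineages, had the largest ratio of the 9 genes. Its brightest probe set, 201368_at, gave 2477 in p53 off cells and 17754 after induction, 7.17-fold higher. The probe set 201369_s_at read 130.2 and 577.3, or 4.43-fold, and 201367_s_at read 87.74 and 328.6, at least 2.92-fold. The fourth, 227681_at, was under the floor on both arrays at 20.54 and 60.09. All 3 measured probe sets were thus past 2-fold, but 201367_s_at was measured only through the p53 on array and could not have read lower. Of measured genes, 1.66% had a ratio as high or higher than that of the brightest probe set.

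ZFP36, the gene of tristetraprolin, which limits cytokine messengers, had 1 probe set, which read 1239 and 3327, 2.69-fold higher. ZFP36L1 had 4. The brightest, 211962_s_at, read 1929 and 1252, 1.54-fold lower. The next, 211965_at, read 255.2 and 66.09, at least 2.27-fold lower. It was measured only through the p53 off array, so with the floor it could only read lower. The other 2 were under the floor on both arrays, 213277_at at 77.98 and 27.29 and 213284_at at 19.45 and 70.01, and give no ratio. The log2 ratio of ZFP36L2 exceeded that of its paralog ZFP36L1 by 3.46 on the brightest probe sets, and that of ZFP36 exceeded it by 2.05.

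**Figure D3:**
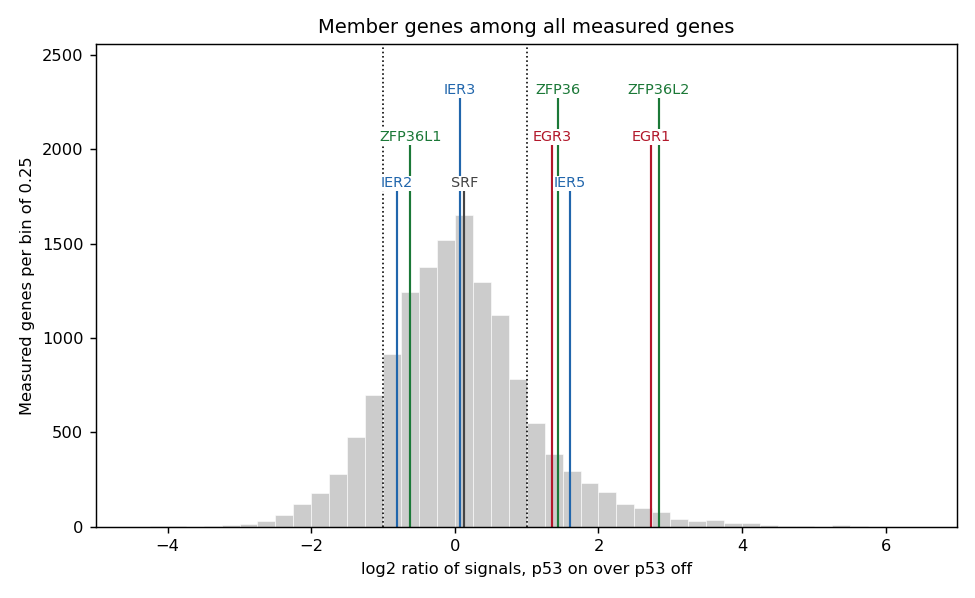
Histogram of the log2 ratio of p53 on over p53 off for 13915 measured genes, in bins of 0.25, with a vertical line for each of the 9 genes and dotted lines at 2-fold. ZFP36L2 and EGR1 stand in the upper tail at 2.84 and 2.73, IER3 and SRF near the middle, and IER2 and ZFP36L1 below it at -0.81 and -0.62.

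The decay machinery that ZFP36 proteins recruit had mostly lower signals. All 18 listed genes were measured, with 1 called higher, 7 called lower and a median log2 ratio of -0.71. CNOT1, the scaffold of the CCR4-NOT complex, read 3152 and 3169, a log2 ratio of 0.01. CNOT9, a subunit that binds regulatory proteins, was 2.63-fold lower, and its 5 probe sets ran from -1.66 to -0.35. CNOT3 was 2.63-fold lower at 673.6 and 256.1, with its other probe set at -0.33. PARN, another deadenylase, was 2.53-fold lower at 2404 and 950.9. CNOT6L, a catalytic subunit, was the higher one, 2.57-fold at 1506 and 3877, with its other probe set at 0.63. With the mean of all probe sets of a gene none was called higher and 4 were called lower. After loess 4 of the 18 were called lower and after quantile normalization 5.

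Other proteins that bind decay elements gave 1 gene past 2-fold among 6 measured of 7. That was TIA1, a translational repressor, 2.39-fold lower at 2569 and 1076, with all 7 probe sets lower.

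Messengers reported as targets of ZFP36 proteins were mixed. Of 25 listed, 19 were measured, 4 called higher and 3 called lower, with a median of -0.17 (0.06 after loess, and 0.49 without probe sets whose names mark shared sequence). MYC was 3.27-fold lower at 5388 and 1649. CXCL3, a chemokine gene, was at least 2.18-fold lower, and PLAUR, the urokinase receptor gene, 2.06-fold lower but with probe sets up to 0.84. With the mean of all probe sets 2 were called higher. NOTCH1 was 3.38-fold higher at 335.9 and 1136. IL1B was 2.15-fold higher at 113.7, just above the floor, and 244.8, but its other measured probe set had a log2 ratio of -0.05. The list also holds IER3 and ZFP36, which binds its own messenger. ZFP36 is among the 4 called higher.

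SRF, the factor upstream of many of these genes, was nearly level. Its brightest probe set, 202401_s_at, read 990.5 and 1081, 1.09-fold higher. The other, 202400_s_at, read 116.5 and 33.36, which lies at the floor and gives a bound of only 1.04-fold lower. The log2 ratio of EGR1 exceeded that of SRF by 2.60, although both promoters hold the paired CArG boxes shown above.

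The cofactors of SRF differed among themselves. Of 7 listed, 6 were measured, with 1 called higher, 4 called lower and a median of -1.07. ELK3, a ternary complex factor that can repress its targets until it is phosphorylated, read 437.7 and 2277, 5.20-fold higher on its single probe set. ELK1, the activating relative, read 768.6 and 377.2, 2.04-fold lower, and its other probe set had a log2 ratio of -0.25. ELK4 read 1053 and 605.3, a log2 ratio of -0.80, with 5 probe sets from -1.90 to 0.50.

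The actin-regulated cofactors were lower on their brightest probe sets. MRTFB read 1011 and 404.9, 2.50-fold lower, with another probe set at -0.01. MRTFA read 255.9 and 118.1, 2.17-fold lower, with 4 probe sets from -1.12 to 0.43. FHL2, a LIM protein that binds SRF, was 2.16-fold lower at 8835 and 4081. With the mean of all probe sets of a gene, 1 of the 6 cofactors was called lower instead of 4.

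Cytoskeletal genes reported as targets of SRF, its other output, were spread around 0. Of 18 listed, 14 were measured, with 3 called higher, 2 called lower and a median of 0.06, or -0.09 after quantile normalization. With the mean of all probe sets 1 was called higher. TAGLN, a smooth muscle actin-binding protein gene, was 2.29-fold higher at 185.4 and 424, with probe sets from -0.86 to 1.19. ACTA2 was 2.20-fold higher at 521.5 and 1145, and CFL1, the cofilin gene, 2.20-fold on its brightest probe set but with another at -1.27. ZYX, the focal adhesion protein zyxin, was 5.37-fold lower at 2367 and 440.9 with both probe sets lower, and PFN1, the profilin gene, 2.62-fold lower.

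Across all measured genes with a listed promoter, a CArG box did not go with one direction. Of 189 such genes with at least 1 box, 18.0% were called higher and 17.5% called lower, against 14.9% and 14.2% of 11187 genes. Of the 7 with 2 or more boxes in 1 window, EGR1 alone was called higher. AGPAT1, an enzyme of lipid synthesis, was 2.41-fold lower, and SRF, ING4, ZNF548, ACTG2 and CUL4B had log2 ratios from -0.60 to 0.13. This search was added after the signals were known.

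Genes of the ERK and p38 cascades, which lead to ternary complex factors and ZFP36 proteins, were mostly lower. Of 20 listed, 13 were measured, with 1 called higher, 6 called lower and a median of -0.85, and after loess 3 were called lower. MAP2K1 and MAP2K2, which phosphorylate ERK, were 2.84-fold and 3.15-fold lower, the latter with both probe sets lower. RPS6KA5, a kinase of histone H3 at early genes, was at least 3.44-fold lower, but had a log2 ratio of 0.52 on another probe set. MAPKAPK2, which phosphorylates tristetraprolin, read 903.1 and 499.9, a log2 ratio of -0.85, with 3 probe sets from -0.85 to -0.28. HRAS, a GTPase and not a kinase, was 2.06-fold higher, at 4232 and 8728, and not past 2-fold when scaled to spike-ins.

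Other immediate early genes held both directions. Of 38 listed, 34 were measured, with 13 called higher, 7 called lower and 14 between, and a median of 0.63. Scaled to spike-ins the median was -0.24. HBEGF, an EGF receptor ligand, JUNB, an AP-1 subunit, and NR4A3, an orphan nuclear receptor, were highest at 8.28-fold, 6.89-fold and 6.21-fold. NR4A3 read 196.4 and 1219, with probe sets from 0.33 to 2.72, and those of HBEGF ran from 0.77 to 3.37. The lowest were ID1, an inhibitor of differentiation factors, at 5.42-fold lower (6816 and 1257), PPP1R15A, a stress phosphatase subunit, at 3.69-fold lower, and MYC.

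**Figure D4:**
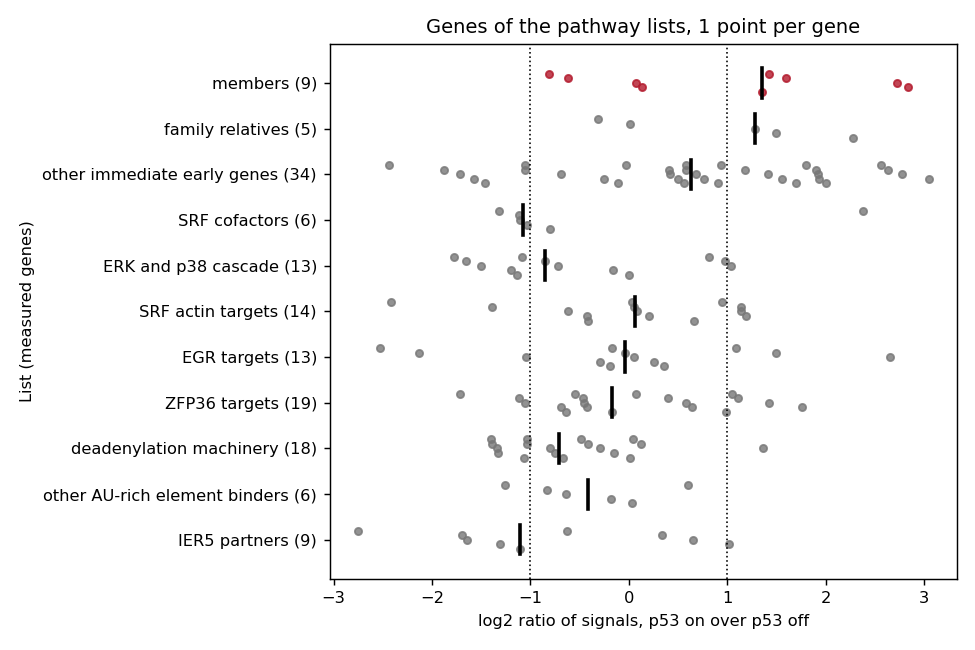
The log2 ratio of p53 on over p53 off for each measured gene of 11 lists, 1 point per gene, with a black bar at each list's median and dotted lines at 2-fold. The medians are 1.35 for the 9 genes (red), 1.28 for their relatives and 0.63 for other immediate early genes. The values 1.35 and 1.28 are the lower bounds of EGR3 and EGR4. They are -0.71 for the deadenylation machinery, -0.85 for the ERK and p38 cascade, -1.07 for SRF cofactors and -1.11 for genes that work with IER5.

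For 3 of the genes, those with the nearest pair of log2 signals were looked up over the 2 arrays, outside the 9 genes. Nearest to EGR1 were CELF2, RALA and CDKN1A, at distances of 0.25, 0.28 and 0.34 on the log2 scale. Nearest to IER3 were BUD31, NQO1 and CTPS1, at 0.017 to 0.039, and nearest to SRF were KDM3A, SLC25A15 and ZNF3, at 0.028 to 0.037. With 2 arrays this likeness is a description of level and ratio only.

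The arrays differed in ways that touch all of these values. The ratio of 3' to 5' control signals for beta-actin was 1.37 in the p53 off array against 7.29 in the other, and for GAPDH it was 0.97 against 1.77. The distance of each member's probe sets from the 3' end was not analysed here. The part of this in the members' ratios was not tested. Spike-ins added at hybridization (18 probe sets) had a median ratio of p53 on over p53 off of 1.89. Scaled to them, EGR1 was 3.51-fold and ZFP36L2 3.78-fold higher, while IER5 and ZFP36 stood at 1.60 and 1.42 times their p53 off signals and EGR3 at least at 1.35 times. On that scale IER2 and ZFP36L1 were at 0.301 and 0.344 times theirs, past 2-fold lower, a size that 43.0% of all genes then reached, while 5.77% were past 2-fold higher. IER3 and SRF turned from slightly above to below 1, at 0.555 and 0.578. Directions are therefore relative to the median gene, which itself moved to -0.83 with this scaling.

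**Figure D5:**
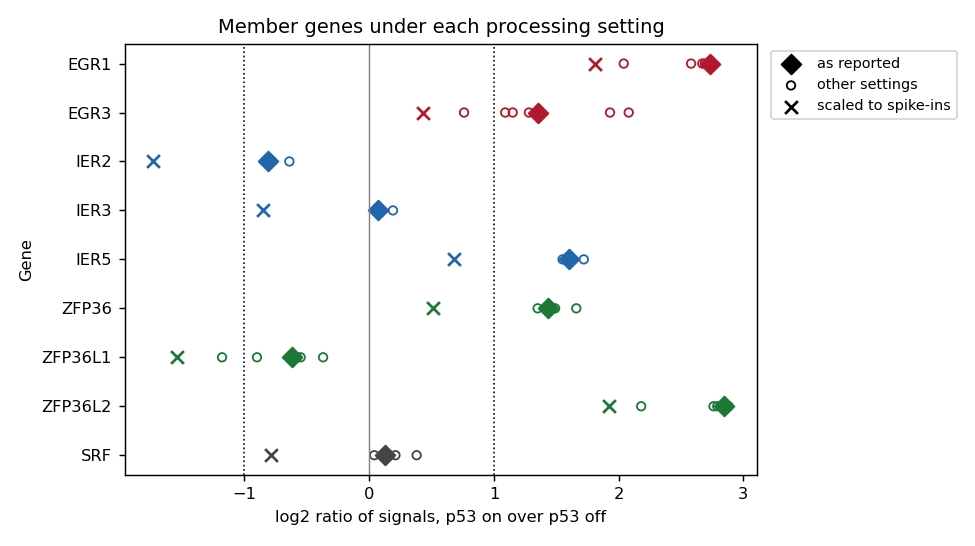
The log2 ratio of each of the 9 genes as reported (diamond), under each other setting (open circle) and scaled to the spike-ins (cross), with dotted lines at 2-fold. EGR1 and ZFP36L2 stay above 2-fold wherever they have a value, at 1.81 or more and 1.92 or more, while all crosses lie to the left of their diamonds.

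As a check of the labels, 7 of 7 measured p53 target genes of a short list were called higher, CDKN1A by 8.58-fold. With the mean of all probe sets 6 of the 7 were called higher, and scaled to spike-ins 5. Without probe sets whose names mark shared sequence, 3 of 4 were. Of 12 colon epithelial markers 9 were measured, their summed signal was 112078 and 178822, and EPCAM, KRT8, KRT18 and KRT19 were bright, while KRT20, CDX1 and GPA33 lay under the floor on both arrays. Summed signals of leukocyte, fibroblast and endothelial markers were 1502, 592.8 and 392.4 with p53 off and 1210, 962.6 and 687.5 with p53 on. Of 7 leukocyte, 7 fibroblast and 6 endothelial markers, 3, 5 and 4 were measured. PTPRC, CD3E, CD14, COL1A1, COL3A1, KDR and TEK lay under the floor on both arrays. CORO1A read 971.5 and 481.7, and CD79A, THY1, COL1A2, CLDN5, DCN, PDGFRB, PECAM1, CDH5 and VWF had signals no higher than 282.9. Past 2-fold in these leukocyte, fibroblast and endothelial lists were CORO1A, 2.02-fold lower, and LAPTM5 and LUM, which were higher. LAPTM5 (62.68 and 247.9) was at least 2.21-fold and LUM (49.4 and 231.4) at least 2.06-fold higher. Among colon epithelial markers, LGALS4 (258.8 and 1576) was 6.09-fold and KRT19 (12217 and 25916) 2.12-fold higher, and none was called lower. The part of these markers in the members' ratios was not tested.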

How the data were processed

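Total RNA of 2 samples, prepared with Trizol per the labels' protocols, was measured on 1 Affymetrix array each. The deposited values are probe set intensities on a linear scale. MAS5 (version not given in the sources used here) produced them, per the submitters' processing notes. Both columns hold 54675 probe sets, 62 of them controls, and the mean without the outer 2% at each end was 500.1 on both arrays, so no further scaling was added. Arrays have no depth, and their number limits the precision.

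Probe sets with 1 gene symbol (41091) took their names from the platform table of GEO, and old symbols were replaced by those RefSeq holds for the same Entrez identifier (GRCh38.p14, 41043 entries matched). Without replicates no p-value was computed. Signals under the floor (the 50th percentile of all signals outside controls) were set to it, genes were represented by the probe set of highest mean signal, and calls were made at 2-fold or 1.5-fold.

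Named genes were all members, up to 3 past 2-fold in each direction of every list, and 12 fixed partners. The members and lists were chosen with earlier results of these data known. The procedure was run on data simulated from the p53 off array, with small added noise and known fold changes in bright genes only. Known changes near the floor and differences in 3' to 5' signal were not simulated. Other settings tried were a floor at percentile 40 or 60, pseudocounts of 1 or the floor, median centring, quantile normalization, loess (span 0.3), spike-in scaling, means over probe sets, leaving out _x_at and _s_at probe sets, and the 1.5-fold threshold. The work used Python 3.11.15 with numpy 2.4.6, pandas 2.3.3, statsmodels 0.14.6 and matplotlib 3.10.9.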

Additional observations from a re-analysis of the deposited data

Results flagged for a closer look

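Both results here come from controls on the arrays, outside the gene comparisons. The beta-actin 3' signal on the p53 on array was 7.29 times the 5' signal, above the 1.37 of the p53 off array, and for GAPDH the ratio was 1.77 against 0.97. Spike-ins had a median ratio of p53 on over p53 off of 1.89, from 1.47 to 2.59.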

How the results depend on the processing

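The count of 5 genes at least 2-fold higher was 4 to 5 under every setting tried except scaling to spike-ins, which left 2 (EGR1 and ZFP36L2), with 2 at least 2-fold lower (IER2 and ZFP36L1) and a median log2 ratio of 0.43. With that scaling 5.77% of all measured genes were past 2-fold higher and 43.0% past 2-fold lower. The count of 0 at least 2-fold lower became 2 at the 1.5-fold threshold and 1 (ZFP36L1) without _x_at and _s_at probe sets. That last setting left 6 genes, since all probe sets of EGR1, IER3 and SRF carry the _s_at mark for sequence shared between transcripts. Elsewhere the median ran from 0.76 to 1.43. Between the brightest and the other measured probe sets of a gene, log2 ratios differed by a median of 0.56. That difference lies within the same arrays and does not stand for a spread between cultures, and its source was not tested. No paired analysis was possible because each condition has 1 array.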
